A study of Homo sapiens with 9 samples.

Results

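The APOBEC3 cytidine deaminases were followed in 3 stable lines derived from T47D, a breast cancer line of luminal, hormone receptor-positive type. The family was taken as every probe of the arrays whose gene name was APOBEC3A, APOBEC3B, APOBEC3C, APOBEC3D, APOBEC3F, APOBEC3G or APOBEC3H, which gave 7 genes on 9 probes, of 43395 genes on 58201 probes in all. T47D-PA6 carries the full-length PTH-AS fragment, T47D-PA5 an incomplete PTH-AS fragment and T47D-VC1 the empty vector, and PTH-AS is a long noncoding RNA encoded downstream of the parathyroid hormone gene. The fragments were cloned into the pTARGET plasmid, and stable lines were obtained by G418 selection. Each line was measured on 3 single-color arrays. The supplement describes choosing a single line from several with high expression, so each group stands for 1 selected line, and an effect of the fragment cannot be told apart from a difference between lines. No source used here states that the 3 arrays of a line came from separate cultures, so p-values measure the spread between these arrays, which may be technical.

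APOBEC3 proteins remove the amino group from cytosine in single-stranded DNA and turn it into uracil. They act against retroviruses and retroelements by editing their reverse transcripts, and several members respond to interferon in blood and epithelial cells. APOBEC3A, APOBEC3C and APOBEC3H have a single deaminase domain, while APOBEC3B, APOBEC3D, APOBEC3F and APOBEC3G have a pair. In breast tumors the family is known mainly for APOBEC3B, which is nuclear and has been linked, together with APOBEC3A, to clustered cytosine mutations.

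The genes lie side by side on chromosome 22, and the probe sequences decide which transcript each value can report. The APOBEC3B probe lies at chr22:39387538-39387597 in hg19, the build named in the files. APOBEC3F has 2 probes, one listed for transcript variant 2 at chr22:39440368-39440427 and one listed for transcript variant 1 at chr22:39448588-39448647. The exon or untranslated region of each probe was not looked up, as no hg19 annotation was used here. Each probe is 60 bases long, and the first 30 bases of the probes of the members that were measured in every line are shown because the results rest on them.
APOBEC3B: gctgcccgcatctatgattacgacccccta
APOBEC3F transcript variant 2: atgcttcaacagcaggactgagatggggac

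Neither of these probes shared a run of 20 bases, on either strand, with any other of the 58201 probes. This search covered array probes and not transcripts, so it does not show which transcripts either probe binds. The file lists the APOBEC3F variant 2 probe for that variant and for 1 further sequence record only, and not for variant 1. The file lists the APOBEC3B probe also for an APOBEC3A transcript and for the APOBEC3A_B fusion, so its signal cannot be assigned to APOBEC3B transcripts alone. APOBEC3C and APOBEC3F variant 1 have nearly the same probe, with a longest shared run of 25 bases and 50 identical bases of 53 aligned. The 30-base windows that hold all 3 mismatches are shown with the mismatched bases in capitals.
APOBEC3C: atAatgagccattcaagccttggaaGggaT
APOBEC3F transcript variant 1: atGatgagccattcaagccttggaaAggaC

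Because of this likeness the signals of both probes were read as uncertain between APOBEC3C and APOBEC3F. The other probes lie in hg19 at chr22:39359092-39359151 for APOBEC3A, chr22:39414287-39414346 for APOBEC3C, chr22:39427939-39428222 for APOBEC3D and chr22:39477481-39477540 for APOBEC3G. APOBEC3H has probes at chr22:39497261-39497320 and chr22:39497974-39498033, listed first for different splice variants.

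Signals are Feature Extraction intensities after quantile normalization between arrays, and a spot was called measured where the software marked it well above background. From 44.0% to 48.0% of all probes were well above background on an array, and the lowest such signal was 9.59 to 15.2. Replicate 1 of each line was on slide 1 and in scan run 1, and the other 6 arrays were on slides 2 and 3 in scan run 2. The luminal identity of the lines held in the data, with 9 of 9 luminal markers (keratins, E-cadherin, GATA3, FOXA1, ESR1 and PGR among them) well above background on all 9 arrays.

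**Figure D1:**
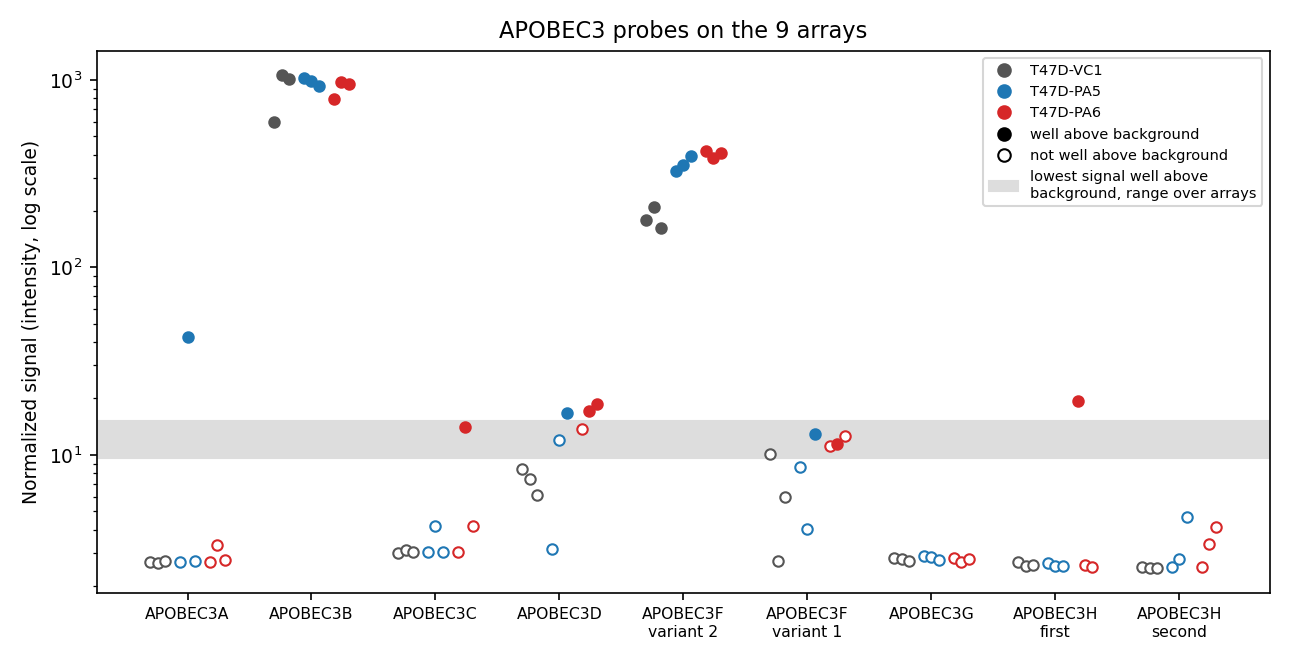
Normalized signal on a log axis for the 9 APOBEC3 probes, with 1 point per array, 3 arrays for each line. Filled points are well above background, open points are not, and the grey band spans the lowest signal well above background on the 9 arrays. APOBEC3B and the APOBEC3F variant 2 probe are filled on all 9 arrays, and the other 7 probes are filled on 0 to 3 arrays.

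APOBEC3B and APOBEC3F were the members measured in these cells, and APOBEC3F was the one that passed the test between lines. APOBEC3F variant 2 was 2.20-fold higher in T47D-PA6 and 1.95-fold higher in T47D-PA5 than in T47D-VC1. APOBEC3B did not pass the test in any comparison, and its differences were smaller than their standard errors. APOBEC3A, APOBEC3C, APOBEC3D, APOBEC3G and APOBEC3H were not well above background on every array of any line, so 2 of the 7 members entered the test.

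APOBEC3F encodes an inhibitor of retroviruses that is packaged into virions and that the HIV Vif protein marks for degradation. Which protein its transcript variant 2 encodes was not looked up, so the signal of that variant's probe does not give the level of this inhibitor. The APOBEC3F variant 2 probe read 179, 211 and 162 in T47D-VC1 replicates 1, 2 and 3. The same probe read 328, 350 and 393 in T47D-PA5, and 417, 385 and 407 in T47D-PA6. All 6 arrays of the fragment lines were above all 3 control arrays. The share of all genes whose arrays separate in this way was not counted. Replicate 3 of T47D-PA5 was above replicate 2 of T47D-PA6, so the fragment lines overlapped. T47D-VC1 had a geometric mean signal of 183 (SD 0.19 log2, n = 3), T47D-PA5 one of 356 (SD 0.13 log2, n = 3) and T47D-PA6 one of 403 (SD 0.06 log2, n = 3).

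In limma, fitted on all 20106 genes tested, the APOBEC3F log2 difference of T47D-PA6 over T47D-VC1 was 1.14 (SE 0.12, 95% interval 0.86 to 1.42, adjusted p = 0.0016). That of T47D-PA5 over T47D-VC1 was 0.96 (SE 0.12, 95% interval 0.68 to 1.24, adjusted p = 0.0091). Both use the same T47D-VC1 arrays and so are not independent of each other. One of the 2 tested members thus passed the test in each comparison, where 10.0% of all genes tested passed in T47D-PA6 over T47D-VC1 and 1.67% in T47D-PA5 over T47D-VC1. In the exact two-sided permutation test APOBEC3F gave p = 0.1 in both comparisons, the smallest value that 3 arrays against 3 allow. In bulk RNA, fewer cells that express a gene and less of its RNA per cell cannot be told apart.

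Between the fragment lines APOBEC3F differed by 0.18 on the log2 scale (95% interval -0.10 to 0.46, limma adjusted p = 0.42). The interval leaves room for a difference of up to 0.46 in favor of T47D-PA6. In T47D-PA6 over T47D-PA5, 0 of the 2 tested members passed limma's adjusted threshold, 0 had an unadjusted p under 0.05 in limma and 0 in the methods' t-test, where 9.71% of all genes passed limma's adjusted threshold. In increasing order the APOBEC3F levels were those of T47D-VC1, then T47D-PA5, then T47D-PA6, and the last 2 did not differ beyond their spread.

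The APOBEC3F difference was present in both scan runs. T47D-PA6 was above T47D-VC1 by 1.22 log2 in scan run 1, with 1 array a line, and by 1.1 in scan run 2, with 2 arrays a line. T47D-PA5 was above T47D-VC1 by 0.87 in scan run 1 and 1.0 in scan run 2. Within slides, T47D-PA5 over T47D-VC1 was 0.73 on slide 2 and 1.28 on slide 3, and T47D-PA6 over T47D-VC1 was 1.28 on slide 3. Without T47D-PA5 replicate 3 the log2 difference of T47D-PA5 over T47D-VC1 was 0.89 with a limma adjusted p of 0.052, so the call was lost. Over all genes 99 passed in that fit, beside 335 with all arrays. In the methods' t-test on all arrays the adjusted p of APOBEC3F in this comparison was 0.11. By the fold limits that the methods set, above 2 or below 0.6 relative to the vector control and without a test, APOBEC3F counted in T47D-PA6 and not in T47D-PA5. That definition took 7.64% of all genes tested in T47D-PA6 and 3.92% in T47D-PA5.

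**Figure D2:**
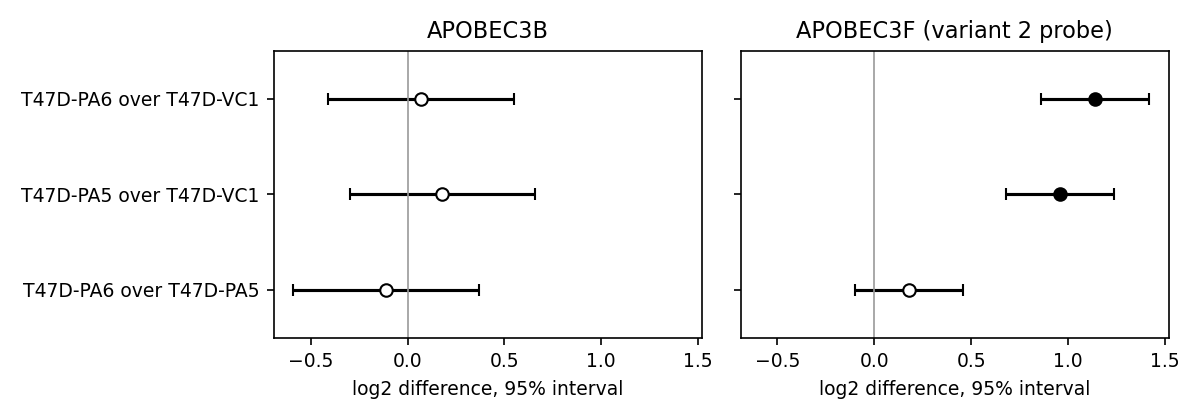
Log2 differences of the APOBEC3B and APOBEC3F variant 2 probes in the 3 comparisons, with 95% intervals from limma over 9 arrays. Filled points have an adjusted p under 0.05 and open points do not. APOBEC3F lies at 1.14 and 0.96 over T47D-VC1, and each APOBEC3B interval includes 0.

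The variant 1 probe of APOBEC3F stayed near background. Its signal was 10.1, 2.73 and 5.96 in T47D-VC1, 8.57, 4.01 and 13.0 in T47D-PA5, and 11.2, 11.5 and 12.6 in T47D-PA6. It was well above background on 1 array of T47D-PA5 (13.0) and 1 of T47D-PA6 (11.5). No fold or order between lines is given for this probe. The T47D-PA6 mean of 11.7 did not exceed the mean of the lowest well-above-background signals on the T47D-VC1 arrays. The change of APOBEC3F was thus measured on the variant 2 probe alone.

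APOBEC3B, the nuclear member, was well above background on all 9 arrays. Its probe read 599, 1058 and 1013 in T47D-VC1, 1025, 984 and 933 in T47D-PA5, and 794, 981 and 956 in T47D-PA6. Replicate 1 of T47D-VC1 was the lowest array and replicate 2 of the same line the highest, so the lines overlapped. T47D-VC1 had a geometric mean of 863 (SD 0.46 log2, n = 3), T47D-PA5 one of 980 (SD 0.07 log2, n = 3) and T47D-PA6 one of 907 (SD 0.17 log2, n = 3).

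The APOBEC3B log2 difference was 0.07 in T47D-PA6 over T47D-VC1 (95% interval -0.41 to 0.55, limma adjusted p = 0.87). It was 0.18 in T47D-PA5 over T47D-VC1 (95% interval -0.30 to 0.66, limma adjusted p = 0.74) and -0.11 in T47D-PA6 over T47D-PA5 (95% interval -0.59 to 0.37, limma adjusted p = 0.79). These intervals do not show equal levels, but they hold no APOBEC3B difference above 0.66 log2 in either direction. Without T47D-VC1 replicate 1 the differences over T47D-VC1 were -0.19 and -0.08, so their sign rested on that array. The same appeared by scan run, with T47D-PA6 over T47D-VC1 at 0.41 in scan run 1 and -0.10 in scan run 2, and T47D-PA5 over T47D-VC1 at 0.77 and -0.11.

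APOBEC3D, which also restricts HIV in the absence of Vif, was well above background on 3 of the 9 arrays, none of them of the control line. Its signal was 8.44, 7.46 and 6.10 in T47D-VC1, with no array well above background. It was 3.14, 12 and 16.8 in T47D-PA5, with replicate 3 well above background, and 13.7, 17.2 and 18.8 in T47D-PA6, with replicates 2 and 3 well above background. As the T47D-VC1 spots and 1 T47D-PA6 spot were not well above background, no order between lines is read from them. The mean signals, dim spots included, were 16.4 in T47D-PA6 and 7.27 in T47D-VC1. No fold is given because replicate 1 of T47D-PA6 was itself not well above background.

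With no filter on dim probes, all 7 members could be fitted among 43395 genes. APOBEC3D in T47D-PA6 over T47D-VC1 then had a log2 difference of 1.18 (SE 0.58, limma adjusted p = 0.43). That value rests on spots not well above background in T47D-VC1 and in replicate 1 of T47D-PA6, so it is not a measured fold. In that fit APOBEC3F passed over T47D-VC1 in both fragment lines and no other member passed in any comparison, with adjusted p of 0.0057 in T47D-PA6 and 0.024 in T47D-PA5. Of all genes in that fit, 2.96% passed in T47D-PA6 over T47D-VC1, 0.456% in T47D-PA5 over T47D-VC1 and 2.91% in T47D-PA6 over T47D-PA5.

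APOBEC3A, an interferon-responsive member best known from myeloid cells and keratinocytes, read 2.66 to 2.71 in T47D-VC1 and 2.70 to 3.31 in T47D-PA6. In T47D-PA5 its probe read 42.7 on replicate 2, well above background, and no more than 2.71 on the other 2 arrays. APOBEC3C, a weak inhibitor of HIV, read 3.0 to 3.1 in T47D-VC1, 3.02 to 4.19 in T47D-PA5 and 3.04 to 14.1 in T47D-PA6. The highest of these, replicate 2 of T47D-PA6, was the one APOBEC3C spot well above background. Each of these signals came from a single array and was not seen in the other replicates of its line.

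APOBEC3G, the member first found as the target of Vif and abundant in T cells, stayed short of the well-above-background mark on all 9 arrays, with signals of 2.69 to 2.88. APOBEC3H, whose protein stability varies between human haplotypes, read 2.54 to 2.68 on its first probe except in T47D-PA6 replicate 1, where it read 19.5 and was well above background. Its second probe read 2.49 to 4.69 and did not reach that mark anywhere, including T47D-PA6 replicate 1 at 2.51. Signals this low have no order between lines.

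The RefSeq promoter table (GRCh38.p14) held 1 of the 7 members, APOBEC3H, at chr22:39096994-39097293. In its 300 bases 4 motifs were searched on both strands, and each was found 0 times. They were an interferon-stimulated response element core GAAANNGAAA, present in 3.57% of 35116 promoters, a gamma-activated site TTCNNNGAA in 7.66%, a kappaB-like site GGGNNTTTCC in 1.91% and the cell cycle homology region TTTGAA in 15.2%. These counts say only that the letters are not in this window.

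Most genes around the cluster did not pass the test. Within 500 kb of the outermost APOBEC3 probes, 29 other genes were tested, 13 before the cluster, 1 inside it and 15 after it. Their median log2 difference was -0.04 in T47D-PA6 over T47D-VC1 and -0.06 in T47D-PA5 over T47D-VC1, beside -0.03 over all genes in both comparisons. In T47D-PA6 over T47D-VC1, 2 were higher and 1 lower, or 10.3% of the 29, near the 10.0% of all genes tested. The Polycomb genes CBX6 (0.38, limma adjusted p = 0.043) and CBX7 (0.42, limma adjusted p = 0.04) rose, and RPL3, a ribosomal protein gene, fell by 0.39 (limma adjusted p = 0.047). In the methods' t-test 1 of the 29 passed after adjustment in that comparison, beside 432 of all 20106 genes. In T47D-PA5 over T47D-VC1, 0 of the 29 passed in limma, with 6 below 0.05 unadjusted. By the methods' t-test 0 passed after adjustment, with 6 below 0.05 before it. Of all 20106 genes, 39 passed after adjustment and 3011 were below 0.05 unadjusted.

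Before the cluster were KDELR3, DDX17, CBY1, lnc-JOSD1-1, TOMM22, JOSD1, GTPBP1, lnc-GTPBP1-1, SUN2, lnc-GTPBP1-2, DNAL4, NPTXR and CBX6, and their differences in T47D-PA6 over T47D-VC1 ran from -0.31 (CBY1) to 0.38 (CBX6). LOC101927202 lies between the APOBEC3G and APOBEC3H probes and was at -0.74 (limma adjusted p = 0.46). After the cluster came CBX7, PDGFB, lnc-SYNGR1-2, lnc-RPL3-1, SNORD83B, RPL3, SNORD83A, SNORD43, SYNGR1, TAB1, LOC100506472, MGAT3, MIEF1, ATF4 and RPS19BP1. Of these MGAT3 had the highest value, 1.64, with a limma adjusted p of 0.095. ATF4, a stress-response transcription factor, rose in T47D-PA6 over T47D-PA5 (0.66, limma adjusted p = 0.038).

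**Figure D3:**
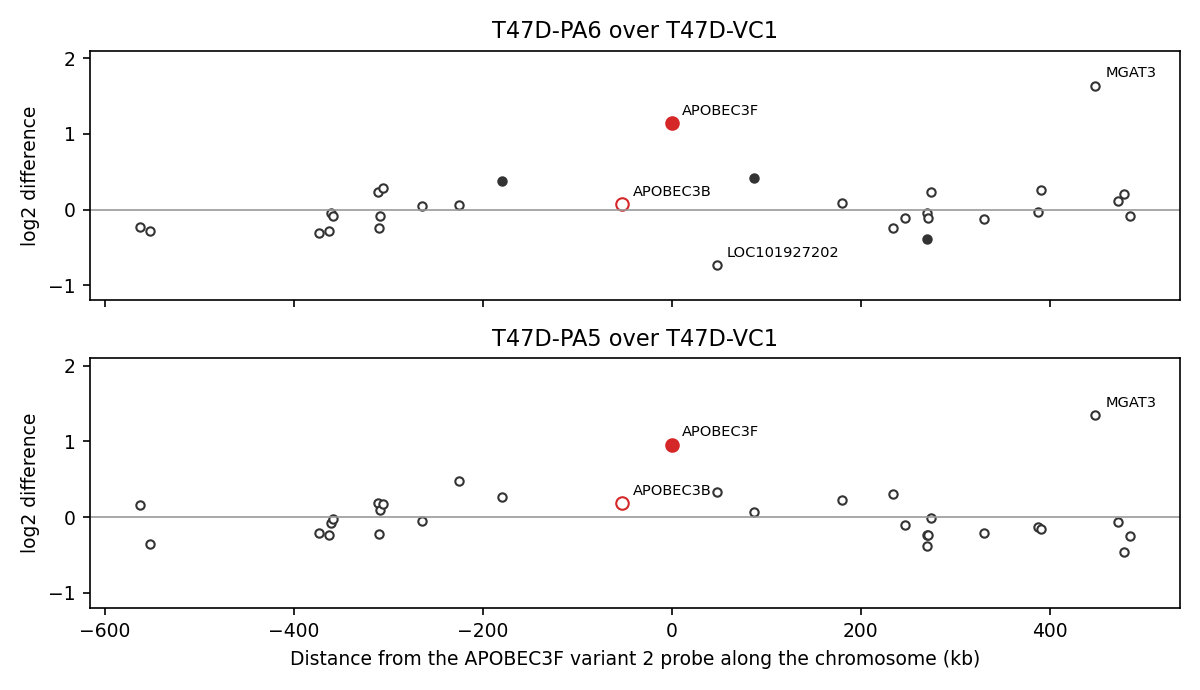
Log2 difference over T47D-VC1 of the tested genes within 500 kb of the APOBEC3 probes against distance in kb from the APOBEC3F variant 2 probe, for T47D-PA6 (top) and T47D-PA5 (bottom). Red points are APOBEC3 members, dark points other genes, and filled points have a limma adjusted p under 0.05. APOBEC3F lies at 1.14 and 0.96, while the other 29 genes have medians of -0.04 and -0.06.

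Lists of genes tied to APOBEC3 function were read beside the family, and their medians are log2 differences of T47D-PA6 over T47D-VC1. The share of all genes tested that passed was 10.0% in that comparison, 1.67% in T47D-PA5 over T47D-VC1 and 9.71% in T47D-PA6 over T47D-PA5. Unadjusted, 4445, 3011 and 4856 of the 20106 genes were below 0.05 in the methods' t-test in the same order. After adjustment 432, 39 and 789 of them passed that test. Among other deaminases, 7 of 12 genes were tested, 1 rose and 6 did not pass, with a median of 0.55. That is 14.3% of the 7, near the 10.0% of all genes. The gene that rose was ADAR, the interferon-responsive enzyme that edits adenosine in double-stranded RNA. Its mean signal was 7017 in the control line, 12073 in T47D-PA5 and 11874 in T47D-PA6, a difference of 0.76 (SE 0.11, limma adjusted p = 0.0055) in T47D-PA6 and 0.78 (SE 0.11, limma adjusted p = 0.014) in T47D-PA5. RBM47, an RNA-binding partner of APOBEC1, was at 0.20 (limma adjusted p = 0.62) and DCTD, which deaminates dCMP, at 0.19 (limma adjusted p = 0.6). APOBEC1, APOBEC2, APOBEC4 and A1CF were not tested, being well above background on 0 arrays of each line.

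The interferon response factors that control many antiviral genes were tested on all 6 members, and 5 rose in T47D-PA6 over T47D-VC1, with a median of 2.24. That is 83.3% of the 6, beside 10.0% of all genes. IRF9, the DNA-binding subunit of the interferon-stimulated gene factor, had a log2 difference of 3.16 (SE 0.25, limma adjusted p = 5e-04). IRF7 was at 3.0 (SE 0.27, limma adjusted p = 0.00072) and STAT2 at 1.23 (SE 0.20, limma adjusted p = 0.0081), while IRF2 was at -0.50 (limma adjusted p = 0.33). In T47D-PA5 over T47D-VC1, IRF9 (1.99, limma adjusted p = 0.0089) and IRF7 (1.53, limma adjusted p = 0.033) rose and the other 4 did not pass, or 33.3% of the 6 beside 1.67% of all genes. In T47D-PA6 over T47D-PA5, 5 of these 6 genes passed as higher (9.71% of all genes passed). APOBEC3F and ADAR (-0.02, limma adjusted p = 0.93) did not pass there, and no test compared their differences with those of the 6. In the methods' t-test after adjustment 4 of the 6 passed in T47D-PA6 over T47D-VC1. By that test 0 passed in T47D-PA5 over T47D-VC1 (3 below 0.05 unadjusted) and 0 in T47D-PA6 over T47D-PA5 (5 below 0.05 unadjusted). Of all genes only 39 and 789 passed it in these comparisons.

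Other restriction factors against retroviruses and retroelements were tested for 13 of 14 genes. In T47D-PA6 over T47D-VC1, 4 rose and 9 did not pass, with a median of 0.05. That is 30.8% of the 13, beside 10.0% of all genes, and 2 passed in the methods' t-test after adjustment. HERC5, an ISG15 ligase, was at 3.08 (limma adjusted p = 0.00061) and BST2, the tetherin that holds virions at the cell surface, at 2.0 (limma adjusted p = 0.004). SAMHD1, which lowers dNTP pools, was at 0.68 (limma adjusted p = 0.02) and ZC3HAV1, a zinc-finger antiviral protein, at 0.62 (limma adjusted p = 0.033). SERINC3 was at 0.05 (limma adjusted p = 0.8).

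Uracil excision and repair genes, which process the product of deamination, were tested for all 18 genes, and 1 passed in T47D-PA6 over T47D-VC1, or 5.56% beside 10.0% of all genes. PARP1, a sensor of DNA strand breaks, fell by 0.62 (SE 0.14, limma adjusted p = 0.029) against T47D-VC1, and fell by 1.03 (SE 0.14, limma adjusted p = 0.0051) against T47D-PA5. The median of the list was -0.20. UNG, the main uracil-DNA glycosylase, was at 0.03 (limma adjusted p = 0.91) and DUT, which removes dUTP, at -0.20 (limma adjusted p = 0.42). In T47D-PA5 over T47D-VC1, 0 of the 18 passed in limma (4 below 0.05 unadjusted) and 0 in the methods' t-test (6 below 0.05 unadjusted). The count in T47D-PA6 over T47D-VC1 ran from 0 to 5 over the processing alternatives.

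Of 14 regulators reported for APOBEC3B transcription, all tested, RELB of the NF-kappaB family rose in T47D-PA6 over T47D-VC1 (0.55, SE 0.11, limma adjusted p = 0.018), and the other 13 did not pass, which is 7.14% beside 10.0% of all genes. The count was 0 in the methods' t-test after adjustment (3 below 0.05 unadjusted), in the fit of only the lines compared, and in limma without T47D-VC1 replicate 2 or 3 or T47D-PA6 replicate 2 or 3. The median was -0.08. RELA was at 0.07 (limma adjusted p = 0.72) and FOXM1, a cell cycle transcription factor, at -0.12 (limma adjusted p = 0.68). The host subunits of the ubiquitin ligase that Vif recruits were tested for all 6 genes. In limma 0 of them passed in any of the 3 comparisons (0, 0 and 1 below 0.05 unadjusted in T47D-PA6 over T47D-VC1, T47D-PA5 over T47D-VC1 and T47D-PA6 over T47D-PA5), and 0 in the methods' t-test (1 below 0.05 unadjusted in each). The list had medians of 0.05 in T47D-PA6 and -0.04 in T47D-PA5 over T47D-VC1. ELOC, its most strongly labelled probe, was at 0.14 (limma adjusted p = 0.38) and RNF7 at 0.02 (limma adjusted p = 0.94) in T47D-PA6.

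**Figure D4:**
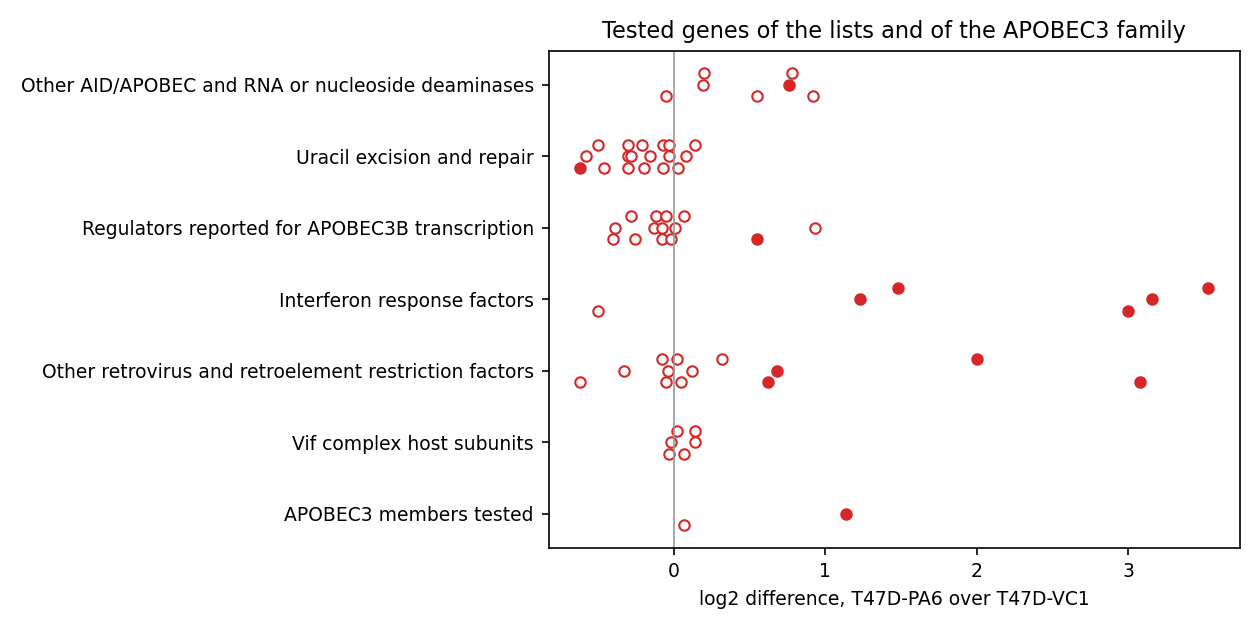
Log2 difference of T47D-PA6 over T47D-VC1 for each tested gene of 6 lists and for the 2 tested APOBEC3 members, with 1 point a gene. Filled points have a limma adjusted p under 0.05. The interferon response factors hold 5 filled points of 6, the Vif complex subunits 0 of 6, and the APOBEC3 members 1 of 2.

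Over the 9 arrays, the genes whose log2 signal followed APOBEC3F most closely, among 18234 well above background on all arrays, were NDFIP1 (Pearson r = 0.977), TRANK1 (r = 0.977) and LOXL2-AS1 (r = 0.976). This is a description over 9 arrays of 3 lines, and its points share the line and the array. NDFIP1, an adaptor of Nedd4-family ubiquitin ligases, read 4779 to 5188 in T47D-VC1, 5663 to 5871 in T47D-PA5 and 5943 to 6147 in T47D-PA6. TRANK1 read 83.8 to 99.5, 202 to 376 and 331 to 423 in the same lines, and LOXL2-AS1 read 248 to 316, 475 to 494 and 512 to 664. All 3 were lowest in T47D-VC1, and their log2 differences of T47D-PA6 over T47D-VC1 were 0.26, 1.99 and 1.1.

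**Figure D5:**
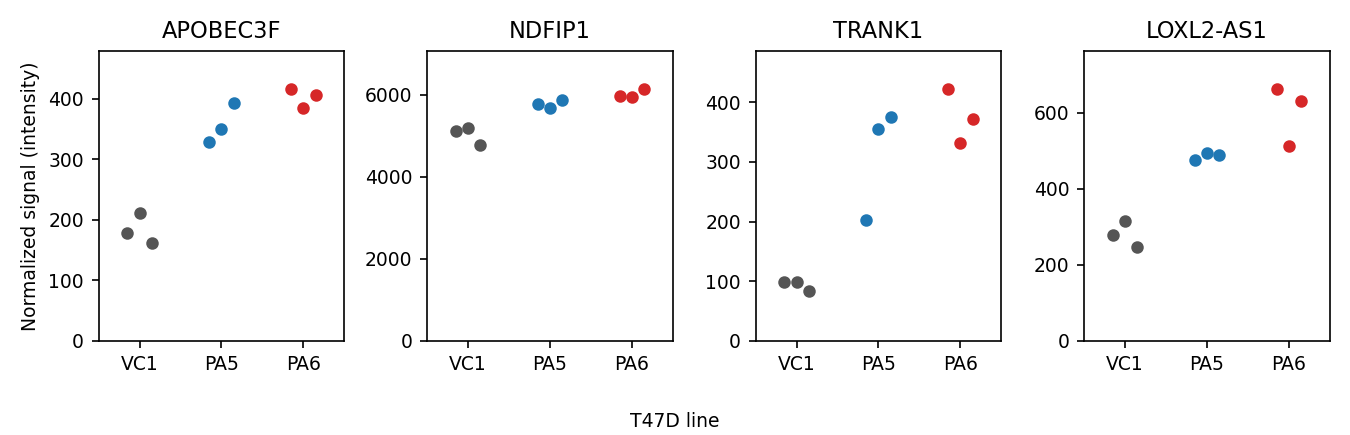
Normalized signal of APOBEC3F (variant 2 probe) and of the 3 genes with the closest pattern over the 9 arrays, with 1 point per array and the T47D line on the horizontal axis. Each vertical axis starts at 0 and has its own scale. In each panel the 3 T47D-VC1 arrays are below the other 6.

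Markers of other cells that could carry APOBEC3 RNA were read in the same arrays. For T and NK cells 2 of 5 markers were tested, PTPRC at -0.17 (limma adjusted p = 0.73) and CD3D at -0.59 (limma adjusted p = 0.3) in T47D-PA6 over T47D-VC1. The summed level of the 5 was 63.1 to 74.6 in T47D-VC1, 48.2 to 80.4 in T47D-PA5 and 44.2 to 86.9 in T47D-PA6, and CD3E and CD2 were well above background on no array. For B cells 2 of 3 were tested, among them CD79A at 0.07 (limma adjusted p = 0.73), with sums over the 3 of 1988 to 2221 in T47D-VC1, 1610 to 2163 in T47D-PA5 and 2167 to 2231 in T47D-PA6. None of the 4 basal and keratinocyte markers was tested. Their sums were 12.5 to 15.9 in T47D-VC1, 11.4 to 40.9 in T47D-PA5 and 25.5 to 29.1 in T47D-PA6. All T47D-PA6 sums were above all T47D-VC1 sums, but they include spots not well above background. How often other genes separate in this way was not counted. KRT14, a basal keratin, was well above background on 0 arrays of T47D-VC1, 1 of T47D-PA5 and 2 of T47D-PA6, and the other 3 were so on no array.

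Some markers differed between lines that also differed in APOBEC3F. CD14, a monocyte marker, had mean signals of 47.8 in the control line, 115 in T47D-PA5 and 167 in T47D-PA6, a difference of 1.80 (limma adjusted p = 0.0082) in T47D-PA6 and 1.27 (limma adjusted p = 0.073) in T47D-PA5. It was the only one of 3 monocyte and macrophage markers read here that was tested. CSF1R was well above background on no array, and ITGAM on 1, 2 and 2 arrays of T47D-VC1, T47D-PA5 and T47D-PA6. The sum of the 3 markers was 57.4 to 73.5, 120 to 156 and 117 to 253 in the same lines. Of 5 fibroblast markers, COL1A1 fell by 0.50 (limma adjusted p = 0.02) in T47D-PA6 and was at -0.16 (limma adjusted p = 0.51) in T47D-PA5. VIM, not well above background in T47D-VC1, rose in both fragment lines, by at least 5.41-fold in T47D-PA6 and at least 2-fold in T47D-PA5. It entered the test through the fragment lines. Its limma adjusted p of 0.0012 (T47D-PA6) and 0.031 (T47D-PA5) used the dim T47D-VC1 signals, with a mean of 6.37, and not these bounds. The sum of the 5 fibroblast markers was 347 to 387, 331 to 379 and 316 to 371, and COL1A2 and COL3A1 were well above background on no array. Of the 9 luminal markers, PGR fell by 1.07 (limma adjusted p = 0.0072) in T47D-PA6 and was at -0.38 (limma adjusted p = 0.32) in T47D-PA5. The other 8 did not pass in T47D-PA6 over T47D-VC1, among them KRT18 (0.20, limma adjusted p = 0.37). KRT19 had the same normalized signal, 301366 (SD 0 log2), in T47D-VC1 and T47D-PA5, the highest value that quantile normalization gives, so its test says nothing about a change. The arrays measured stable cultured lines. The paper reports that vimentin RNA and staining within T47D cells correlated positively with PTH-AS expression. Its negative control was the incomplete fragment, whereas VIM here rose in both fragment lines. The part of these markers in the APOBEC3F difference was not tested.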

How the data were processed

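Labelled RNA of 3 lines was hybridized to 9 Agilent SurePrint G3 v3 arrays. The authors deposited each spot's intensity as background-subtracted by Feature Extraction, whose version is 9.5.1.1 in the submitters' processing notes and 10.7.1.1 per the file headers, and a table of intensities quantile-normalized by the authors. Here outlier spots (46 to 117 per array) were left out, log2 values of repeated spots were averaged and arrays were quantile-normalized. Probes entered the test if all 3 arrays of some line were well above background (26171 probes), and the tested probe of highest mean signal stood for its gene. Such a filter leaves dim members without a test. Comparisons used limma 3.58.1 in R 4.3.3 (with the data.table package, version 1.17.8), in 1 fit with 6 residual degrees of freedom, with Benjamini-Hochberg adjustment over 20106 genes and a threshold of 0.05. The fit was tested on simulated data. The number of arrays, 3 a line, limits the precision.

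Members, lists and tests were chosen with earlier results of these data known. Named were all members, up to 4 passing and 2 other genes of each list (all of a list with 5 or fewer tested), all tested genes within 500 kb and the 3 genes most like each member that passed. A few others are named because a count rests on them, after their values were seen. Some list genes that these rules name are counted in their lists but not reported here by name. Gene symbols came from the files and from RefSeq (31127 probes matched by symbol, 3343 by accession and 496 by synonym). Same-numbered arrays deviated together, with correlations of 0.132 to 0.337 for T47D-PA6 with T47D-VC1, 0.166 to 0.273 for T47D-PA6 with T47D-PA5 and 0.099 to 0.21 for T47D-PA5 with T47D-VC1. Replicate 1 of every line was on slide 1 and replicate 3 of every line on slide 3. Replicate 2 was on slide 2 in T47D-VC1 and T47D-PA5 and on slide 3 in T47D-PA6.

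Alternatives were a 75th percentile shift, normexp with offset 50, the authors' table, no filter and a stricter one, blocks for slide and replicate number, each array left out, a variance trend, the methods' t-test, only the lines compared, and other ways to choose probes.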

Additional observations from a re-analysis of the deposited data

Results flagged for a closer look

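Signals well above background appeared on 1 to 3 arrays for probes that the filter on dim probes left out, while the 3 control arrays of each such probe were not well above background. The APOBEC3A probe read 42.7 on T47D-PA5 replicate 2, where the median pixel of the spot was 103.5 and that of its background 55.0. The APOBEC3H first probe read 19.5 on T47D-PA6 replicate 1, with a median pixel of 92.0 over a background of 70.0, and the APOBEC3C probe read 14.1 on T47D-PA6 replicate 2, with 76.0 over 58.0. The APOBEC3D probe read 16.8 on T47D-PA5 replicate 3, and 17.2 and 18.8 on T47D-PA6 replicates 2 and 3. The APOBEC3F variant 1 probe read 13.0 on T47D-PA5 replicate 3 and 11.5 on T47D-PA6 replicate 2. The cause of these signals was not tested.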

How the results depend on the processing

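APOBEC3F passed in T47D-PA6 over T47D-VC1 under all 21 alternatives, with log2 differences of 0.94 to 1.24 and adjusted p of 0.00056 to 0.042. In T47D-PA5 over T47D-VC1 it passed under 19 of 21, with differences of 0.78 to 1.06 and adjusted p of 0.0045 to 0.11. The exceptions were the t-test of the methods (0 members passed, with an adjusted value of 0.11 for APOBEC3F, and 1 of 2 below 0.05 unadjusted) and the fit without T47D-PA5 replicate 3 (adjusted p = 0.052), so that with each array left out the count of members ran from 0 to 1. Of all 20106 genes, 3011 were below 0.05 unadjusted in that t-test of T47D-PA5 over T47D-VC1. With the replicate number as a block, APOBEC3F was at 1.14 (adjusted p = 0.0053) and 0.96 (adjusted p = 0.02), and the block changed no call of a member. No member passed in T47D-PA6 over T47D-PA5 under any alternative. APOBEC3B passed under none, and with each array left out its difference ran from -0.19 to 0.22 in T47D-PA6 and from -0.08 to 0.33 in T47D-PA5 over T47D-VC1, below 0 in both only without T47D-VC1 replicate 1.

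Over the alternatives, the genes that passed in T47D-PA6 over T47D-VC1 numbered 1 to 2 among other deaminases, 0 to 5 in uracil excision and repair, 0 to 3 among regulators of APOBEC3B, 4 to 5 among interferon response factors, 2 to 5 among restriction factors and 0 among Vif complex subunits. Over all genes 2017 passed in T47D-PA6 over T47D-VC1, 335 in T47D-PA5 over T47D-VC1 and 1952 in T47D-PA6 over T47D-PA5. The counts were 1285, 198 and 1262 with no filter and 432, 39 and 789 by the methods' t-test after adjustment. They were 1146 in T47D-PA6 over T47D-VC1 with only the lines compared and 608 in T47D-PA5 over T47D-VC1 with slide as a block. With 1 array left out, T47D-PA6 over T47D-VC1 ran from 703 (without T47D-PA6 replicate 3) to 2768 (without T47D-PA6 replicate 1). T47D-PA5 over T47D-VC1 ran from 99 (without T47D-PA5 replicate 3) to 621 (without T47D-PA6 replicate 1). The cause of these shifts was not tested. Signal over background limits the other 5 members, which could be fitted only with no filter, where none passed.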
